A study of Mus musculus with 4 samples.

Results

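Hepatocytes, the parenchymal cells of the liver, were searched for in single-cell libraries that had been prepared from liver mononuclear cells. A cell was counted as a hepatocyte-rule cell when *Alb*, *Apoa1*, *Apoa2*, *Ttr*, *Fgb* and *Serpina1c*, 6 genes for proteins that hepatocytes secrete into plasma, together made up at least 1% of its unique molecular identifiers (UMIs, each standing for 1 captured RNA molecule). The cells were thus chosen by their own measured values of these genes, and levels of the 6 genes are no finding. Of 9300 cells in 4 libraries, 234 (2.52%) met the rule. Cells in which genes encoded by mitochondria made up more than 30% of UMIs were kept apart, because a high mitochondrial share is commonly read as a sign of a damaged cell. There were 228 hepatocyte-rule cells at or below 30% and 6 above it.

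The mice were C57BL/6 of 8 to 10 weeks, and each condition was 1 library. Naïve mice were untreated. The other mice received concanavalin A (ConA), a plant lectin that activates T cells and causes an immune hepatitis, and vehicle (ConA+Veh), TCDD (ConA+TCDD) or FICZ (ConA+FICZ), and their cells were taken 24 hours after ConA. By the study's methods vehicle and TCDD were given after the lectin, and the timing of FICZ is not given in the sources used here. TCDD is a dioxin and FICZ a photoproduct of tryptophan, and both are ligands of the aryl hydrocarbon receptor (AhR), a transcription factor that hepatocytes express. The livers were dissociated with enzymes and the mononuclear cells were enriched on Percoll, in a gradient of 40% and 80% by the labels and in a single step by the study's methods. Such a step is meant to leave hepatocytes behind, so that the number recovered measures carry-over and not the number in the liver. How many mice entered a library is not given in the sources used here. With 1 library per condition no test between conditions was possible. All intervals below are 95% intervals of counting error only, and a difference between libraries cannot be told apart from a difference between mice, preparations or runs.

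Hepatocytes make most plasma proteins, among them albumin, the apolipoproteins and fibrinogen. They also hold the urea cycle and much of the metabolism of amino acids, glucose, lipids and drugs, with periportal and pericentral cells expressing different enzymes. During inflammation, cytokines such as interleukin-6 turn on the acute phase genes in hepatocytes, which include serum amyloid A, haptoglobin, hemopexin, orosomucoid and the fibrinogen chains.

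The libraries did not share the cells evenly. The ConA+FICZ library held 202 of the 234 cells (86.3%), so that only 32 remained without it, 29 of them at or below 30% mitochondrial UMIs. In ConA+FICZ 7.91% of 2555 cells met the rule (exact binomial interval 6.89 to 9.02). The share was 0.863% of 2086 cells in Naïve (0.512 to 1.36), 0.468% of 2779 in ConA+Veh (0.249 to 0.799) and 0.0532% of 1880 in ConA+TCDD (0.00135 to 0.296). ConA+TCDD thus contributed 1 cell, ConA+Veh 13 and Naïve 18. The intervals of Naïve and ConA+Veh overlapped, and that of ConA+FICZ lay above all others. When cells were chosen by 12 hepatocyte markers outside the rule instead (at least 1% of UMIs, a choice made after seeing the data), the intervals of these libraries at or below 30% mitochondrial UMIs did not overlap, with 29 cells or 1.39% in Naïve (0.933 to 1.99) and 6 cells or 0.216% in ConA+Veh (0.0793 to 0.469). This choice leans on genes whose level differed between the libraries. *Ass1*, 1 of the 12 markers, gave 692 of their 1464 UMIs in the Naïve hepatocyte-rule cells at or below 30%, and 10 of 576 in those of ConA+Veh. It gave 532 UMIs in the 13 Naïve cells that only the 12 markers chose. Cells above 30% mitochondrial UMIs made up 1 of the Naïve cells, 2 of the ConA+Veh cells and 3 of the ConA+FICZ cells. Of the 128 cells above 30% in the 4 libraries 6 (4.69%) met the rule, compared with 2.52% of all cells. Cell barcodes were shared 45 times between pairs of libraries, and 2 of these involved a hepatocyte-rule cell.

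The 6 genes set the rule, and their values are therefore given as a description. The hepatocyte-rule cells at or below 30% mitochondrial UMIs held a median of 7.78% of UMIs in the 6 genes in ConA+FICZ (quartiles 7.05 and 8.57), and 180 of the 199 cells lay between 5% and 10%. The 17 Naïve cells had lower shares, from 1.08% to 8.52% with a median of 2.09%. The 11 ConA+Veh cells ranged from 1.17% to 21.2% with a median of 5.33%, and the ConA+TCDD cell stood at 4.91%. *Alb*, which encodes albumin, gave 58.7% of the UMIs of the 6 genes in Naïve, 47.1% in ConA+Veh, 45.2% in ConA+TCDD and 31.6% in ConA+FICZ. *Fgb*, the fibrinogen β chain, moved the other way, with 3.0%, 22.4%, 25.8% and 28.2% in the same order. *Apoa1*, the main protein of high-density lipoprotein, was 5.41% in Naïve and 18.9% in ConA+FICZ. Just outside the rule the highest shares were 0.983% in Naïve, 0.559% in ConA+Veh, 0.525% in ConA+TCDD and 0.972% in ConA+FICZ, and just inside it the lowest were 1.08%, 1.17%, 4.91% and 1.02%.

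The label was checked on 12 hepatocyte markers that the rule does not use, among them *Serpina3k*, *Fabp1*, *Apoc3* and *Ahsg*. These made up at least 1% of UMIs in 220 of the 234 cells, which were 196 of 202 in ConA+FICZ, 16 of 18 in Naïve, the 1 in ConA+TCDD and 7 of 13 in ConA+Veh. In ConA+Veh the check went against the label for 5 of the 11 cells at or below 30% mitochondrial UMIs, those with under 5% of UMIs in the rule genes. None of these 5 reached 1% (median 0.448%), all held *Malat1* (258 UMIs), ribosomal protein genes made up 23.3% of their UMIs, and they held 13970 of the 23060 non-mitochondrial UMIs behind every ConA+Veh level below. Summed over the cells at or below 30% mitochondrial UMIs they gave 5.48% of non-mitochondrial UMIs in Naïve, 2.50% in ConA+Veh, 1.27% in ConA+TCDD and 4.53% in ConA+FICZ, and between 0.00976% and 0.0329% in the cells outside the rule of the 4 libraries. Mitochondrial and nuclear RNA, which most other cells carried, were nearly missing from many of them. Most Naïve and ConA+FICZ cells had almost no mitochondrial RNA: 10 of 17 and 141 of 199 held no mitochondrial UMI at all, and 16 and 185 held under 1%, whereas the median over all cells of these libraries was 4.47% and 2.63%. *Malat1*, an abundant RNA that stays in the nucleus, was found in 3 of 17 Naïve and 22 of 199 ConA+FICZ cells, compared with 98.0% and 98.1% of the cells outside the rule. The ConA+TCDD cell, with 631 UMIs, held neither. The ConA+Veh cells differed from these, as none of the 11 lacked mitochondrial UMIs, their shares ran from 0.381% to 24.1%, and 7 of them held *Malat1*. Whether the barcodes held whole cells was not tested.

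**Figure D1:**
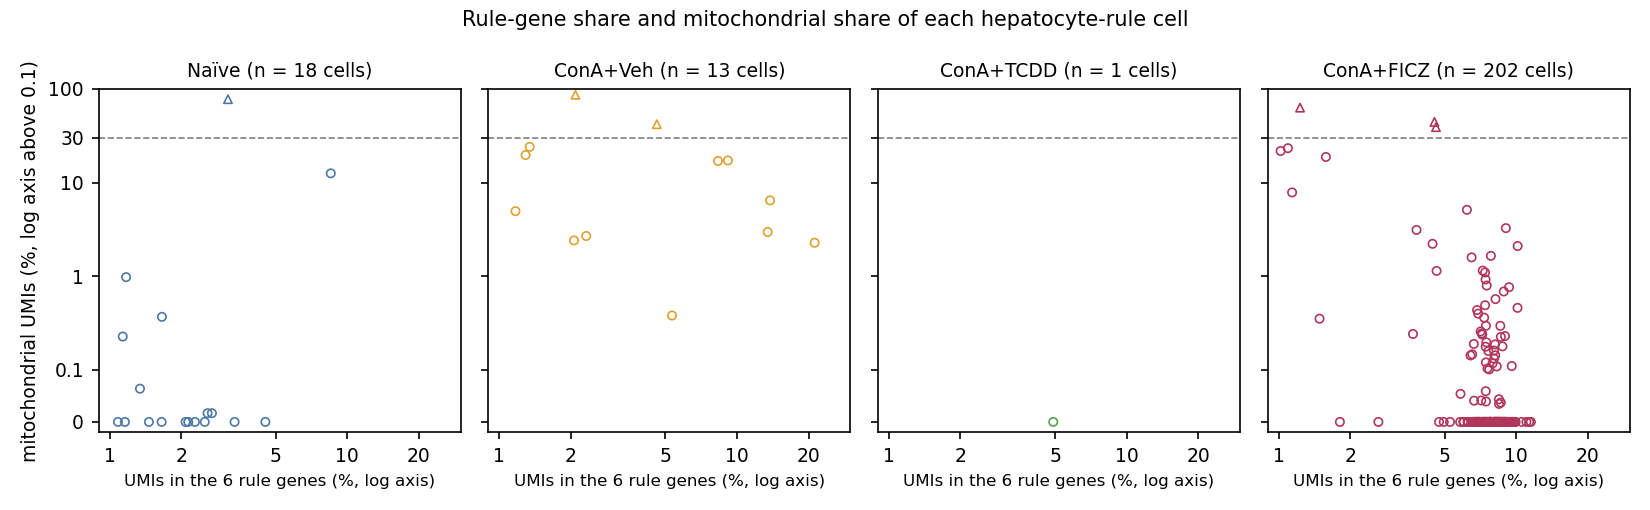
Share of UMIs in the 6 rule genes (log axis) and share of mitochondrial UMIs (log axis above 0.1) for each of the 234 hepatocyte-rule cells, with 1 panel per library. Circles are cells at or below 30% mitochondrial UMIs, triangles cells above it, and the dashed line marks 30%. Most ConA+FICZ cells sit between 5% and 10% on the horizontal axis and at 0 on the vertical axis.

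The hepatocyte-rule cells mostly held few UMIs. At or below 30% mitochondrial UMIs, their median was 941 UMIs in ConA+FICZ, 877 in ConA+Veh and 888 in Naïve, while cells outside the rule had medians of 3534, 3994 and 2169.5 UMIs. The range in ConA+FICZ was wide, from 506 to 22803 UMIs, and the acute phase list made up 19.4% of the pooled non-mitochondrial UMIs in the 109 cells with under 1000 UMIs, 19.7% in the 45 with 1000 to 2000 and 20.8% in the 40 with 2000 to 5000. The 5 cells above 5000 UMIs differed among themselves. The acute phase list made up 22.0% and 21.7% in those of 22803 and 18569 UMIs, and 5.70%, 7.04% and 11.4% in those of 5109, 5270 and 5282. Ribosomal protein genes stood at 10.0% of non-mitochondrial UMIs in Naïve, 16.5% in ConA+Veh, 11.6% in the ConA+TCDD cell and 8.48% in ConA+FICZ, against 28.6% to 31.9% in the cells outside the rule. In ConA+Veh the 6 cells with at least 5% of UMIs in the rule genes stood at 6.14%.

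Markers of other cell types were looked for in the same cells. Among the 11 ConA+Veh cells, 4 held at least 5 UMIs of a B cell list of 5 genes, with 9, 36, 9 and 22 UMIs, and each of these 4 had under 5% of UMIs in the rule genes. All 5 genes of the B cell list were present there (76 UMIs, 3296 per 1000000 non-mitochondrial UMIs), led by *Ly6d*, and 1 ConA+Veh cell also held 6 UMIs of *Siglech*, a dendritic cell gene. In ConA+FICZ 7 of 199 cells held at least 5 UMIs of another cell type. A pair of these carried 888 and 456 UMIs of neutrophil genes, chiefly *S100a9* and *S100a8*, and so nearly all of the 1360 neutrophil UMIs of the 199 cells. The T cell list gave 14 UMIs and the mononuclear phagocyte list 22 in ConA+FICZ, and no Naïve cell held 5 UMIs of any of the lists. Doublets were not removed, and their part in these cells was not tested. When cells with 5 or more UMIs of another type were left out, 7 cells remained in ConA+Veh, 17 in Naïve and 192 in ConA+FICZ at or below 30% mitochondrial UMIs.

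Metabolic enzymes were among the most abundant genes of the Naïve cells, beside the ferritin chains, which store iron. *Ftl1* had 663 UMIs and *Fth1* 483 in Naïve. *Ass1*, argininosuccinate synthase of the urea cycle, led the urea cycle and amino acid list in Naïve, with 692 UMIs in 14 of the 17 Naïve cells, 10 in 6 of the 11 ConA+Veh cells, 0 in the ConA+TCDD cell and 370 in 139 of the 199 ConA+FICZ cells. As counts per 1000000 non-mitochondrial UMIs (CPM), its level was 25903 in Naïve (24009 to 27907), 434 in ConA+Veh (208 to 798) and 1193 in ConA+FICZ (1075 to 1321). Naïve thus stood far above both. The log2 ratio of ConA+FICZ over ConA+Veh was 1.46 (0.57 to 2.53), but 0.91 (−0.23 to 2.36) in cells with at least 5% of UMIs in the rule genes, where the ConA+Veh level rested on 6 UMIs. *Gnmt* and *Bhmt*, which handle methyl groups of glycine and betaine, were highest in Naïve too, with levels of 10182 and 7262 CPM in Naïve, 260 and 130 in ConA+Veh, and 593 and 2048 CPM in ConA+FICZ. The order of ConA+Veh and ConA+FICZ was less certain for *Gnmt*, whose ConA+Veh level rested on 6 UMIs: the log2 ratio of ConA+FICZ over ConA+Veh was 1.19 (0.04 to 2.65), and −0.0075 as a mean over cells. *Serpina1b*, an α1-antitrypsin gene, was high in Naïve too, at 22160 CPM compared with 2168 in ConA+Veh and 5928 in ConA+FICZ. Its log2 ratio of ConA+FICZ over ConA+Veh was 1.45, and −0.34 in cells with at least 10% of UMIs in the rule genes. The *Serpina1* genes are near-identical copies, and the reads could be split among them.

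Acute phase genes were more abundant in the cells of the ConA libraries. *Saa2*, a serum amyloid A gene, had 5 UMIs in 2 of the 17 Naïve cells, 194 UMIs in all 11 ConA+Veh cells, 32 in the ConA+TCDD cell and 11631 UMIs in all 199 ConA+FICZ cells. Its level in CPM was 187 in Naïve (60.8 to 437), 8413 in ConA+Veh (7271 to 9684), 50713 in ConA+TCDD (34688 to 71592) and 37514 in ConA+FICZ (36835 to 38202). *Saa1* gave 524, 8023, 22187 and 32325 in the same order. Naïve was lowest for both genes and its interval lay below the others. In ConA+Veh 1 cell of 7101 UMIs held 73.0% of the *Saa1* and 69.6% of the *Saa2* UMIs, and in Naïve 1 cell held 13 of the 14 *Saa1* UMIs. Per cell, *Saa2* ran from 1 to 1105 UMIs with a median of 34 in ConA+FICZ. With every cell thinned at random to 500 UMIs, *Saa2* was found in 198 of 199 ConA+FICZ cells, 9 of 11 ConA+Veh cells and 2 of 17 Naïve cells. In cells with T or B cell markers outside the rule, which should not express it, the thinned share was 5.77% in ConA+FICZ, 0.285% in ConA+Veh and 0.0605% in Naïve. Before thinning, these shares were 27.1%, 3.64% and 0.181%, at median depths of 5109.5, 5176 and 2248 UMIs.

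*Saa1* and *Saa2* lie next to each other on chromosome 7 and resemble each other closely, which bears on how far their counts can be told apart. The reference transcripts (Saa1-201 and Saa2-201 in the GENCODE annotation) are 93.9% identical over 609 aligned bases, so that reads could be assigned to either or lost. The 250 bases before the start of each gene were read from the RefSeq promoter table for GRCm38.p6, for *Saa1* at chr7:46742981-46743230 on the minus strand and for *Saa2* at chr7:46751583-46751832 on the plus strand. They are shown because these 2 genes had the highest levels outside the rule over the cells of the 4 libraries together, and the capitals mark the motif TTGCNNAA, a core that C/EBP factors of the acute phase response are known to bind. They are given 5′ to 3′ in the direction of each gene:
Saa1: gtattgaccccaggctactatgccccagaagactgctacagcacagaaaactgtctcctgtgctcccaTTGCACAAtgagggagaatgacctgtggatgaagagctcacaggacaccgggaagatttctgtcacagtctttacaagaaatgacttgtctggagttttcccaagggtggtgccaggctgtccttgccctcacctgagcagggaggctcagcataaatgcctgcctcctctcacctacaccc
Saa2: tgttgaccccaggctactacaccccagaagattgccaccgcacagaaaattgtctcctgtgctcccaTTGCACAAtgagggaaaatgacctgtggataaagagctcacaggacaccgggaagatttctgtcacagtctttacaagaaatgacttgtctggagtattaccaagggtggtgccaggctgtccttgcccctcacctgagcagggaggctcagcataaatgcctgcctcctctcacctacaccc
The 2 stretches are 94.8% identical, and the motif begins 182 and 183 bases before the start. Searched on both strands (TTGCNNAA or TTNNGCAA), it was found in the same window of 10 of the 18 acute phase genes that the table holds, 2 of 13 urea cycle and amino acid genes, and 9.56% of all 32851 promoters. A match describes the sequence and does not show binding.

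Taken over genes, ConA+Veh and Naïve differed in opposite directions for these groups. Of 171 genes with at least 50 UMIs in both libraries together, 32.7% were at least 2-fold higher and 33.9% at least 2-fold lower in ConA+Veh (66.7% in either direction), with a median log2 ratio of 0.33. All 10 acute phase genes so measured, of 22 in the list, were at least 2-fold higher (median log2 ratio 3.68). The list held 156 UMIs in Naïve and 1594 in ConA+Veh. These genes thus passed the 50-UMI limit largely through the library where they were high, which favoured this direction. *Saa2* differed by 5.49 on the log2 scale (4.24 to 7.13), *Lcn2*, lipocalin-2, by 4.02 (2.99 to 5.27), *Hp*, haptoglobin, by 3.41 (2.74 to 4.16), *Fga*, the fibrinogen α chain, by 3.33 (2.50 to 4.29) and *Hpx*, hemopexin, by 3.31 (2.77 to 3.90). All 9 genes measured of the 19 in the urea cycle and amino acid list were at least 2-fold lower (median −5.29). So were the 4 measured of the 24 in the cytochrome P450 and conjugation list (median −5.00). These lists held 1786 and 444 UMIs in Naïve, against 74 and 57 in ConA+Veh. Their genes thus passed the 50-UMI limit largely through Naïve, which favoured this direction. Summed without that limit, the urea cycle and amino acid list gave −4.38, and −3.72 without the 4 ConA+Veh cells with B cell markers. That step kept a ConA+Veh cell of 4615 UMIs that the marker check also went against. In the 6 ConA+Veh cells with at least 5% of UMIs in the rule genes, the list made up 0.693% of non-mitochondrial UMIs. It made up 6.69% in the 17 Naïve cells, and 1.60% in the 1 Naïve cell with at least 5%. The lowest ratios over all genes were those of *Rida* (−6.62, from −11.94 to −4.11), *Ass1* (−5.90, from −6.97 to −5.01) and *Adh1*, alcohol dehydrogenase (−5.88, from −11.20 to −3.35). The highest were *Malat1* (5.69), *Saa2* and *Tmsb4x* (4.86), and *Malat1* and *Tmsb4x* are abundant in lymphocytes too. A single ConA+Veh cell of 4615 UMIs held 187 of the 268 *Malat1* UMIs. The 5 cells that the marker check went against, this cell among them, held 258. Among 14 plasma protein genes, 8 were higher and 3 lower. *Apoc3* and *Ahsg* had log2 ratios of 0.25 (−0.15 to 0.66) and 0.17 (−0.26 to 0.59). As the mean over cells of each cell's own level, the summed acute phase list gave a log2 ratio of 2.56 in place of 3.57 for the pooled UMIs. Without the 4 ConA+Veh cells with B cell markers it gave 4.27, and 27 of 119 genes were then at least 2-fold higher in ConA+Veh. In the 6 ConA+Veh cells with at least 5% of UMIs in the rule genes, the acute phase list made up 14.99% of non-mitochondrial UMIs. It made up 0.584% in the 17 Naïve cells, and 1.28% in the 1 Naïve cell with at least 5%.

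**Figure D2:**
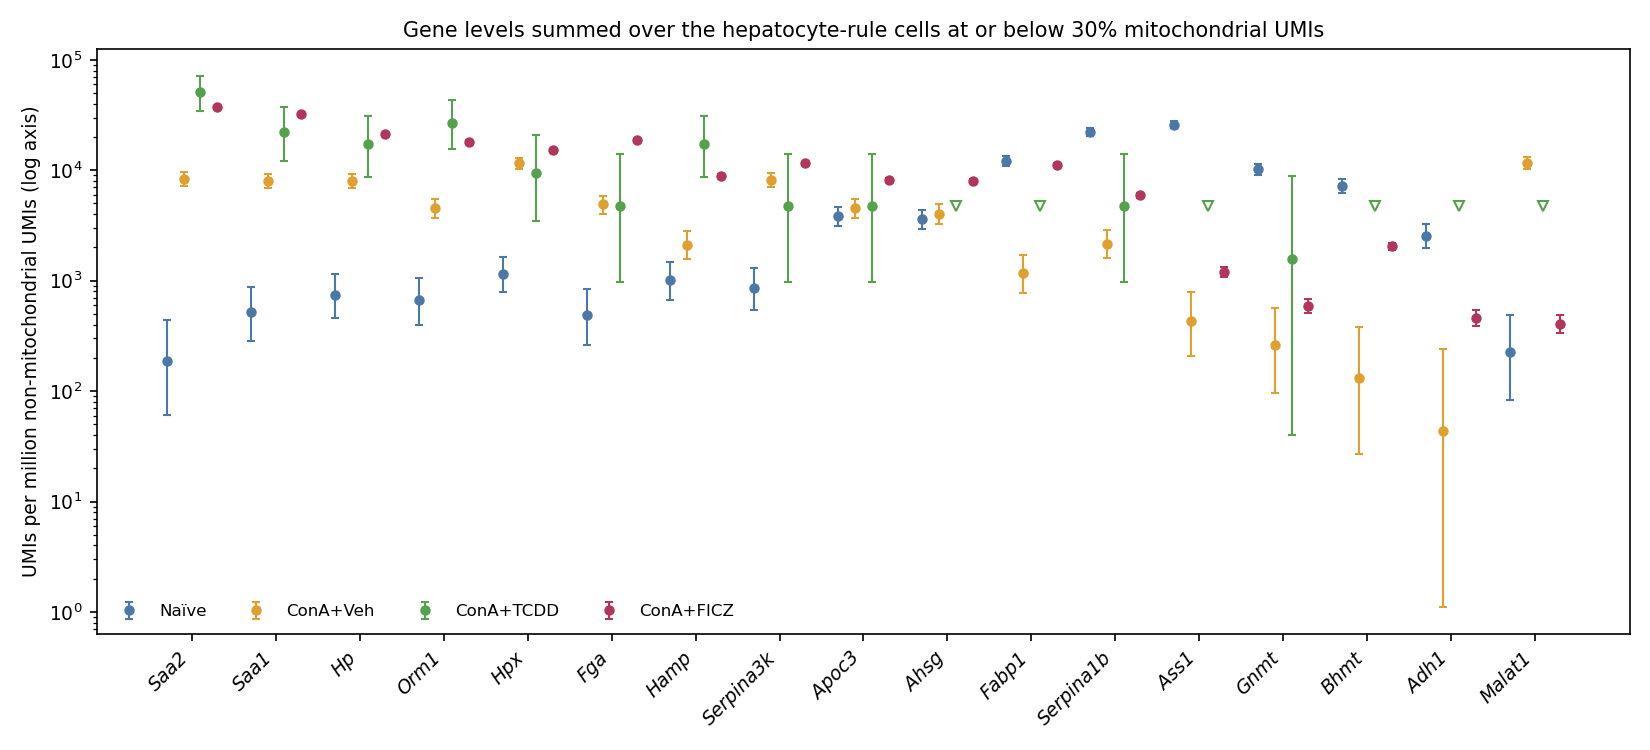
Level in counts per 1000000 non-mitochondrial UMIs (CPM, log axis) of 17 genes, summed over the hepatocyte-rule cells at or below 30% mitochondrial UMIs of each library (Naïve 17 cells, ConA+Veh 11, ConA+TCDD 1, ConA+FICZ 199). Bars are exact Poisson 95% intervals, and open triangles mark the level that a count of 0 allows (3 counts) for genes without a UMI. *Saa2*, *Saa1*, *Hp*, *Orm1* and *Hpx* are lowest in Naïve, and *Ass1*, *Gnmt* and *Bhmt* are highest there.

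The cells of ConA+FICZ and Naïve both had little mitochondrial and *Malat1* RNA, and they too differed in these gene groups. Of 851 genes, 27.1% were at least 2-fold higher in ConA+FICZ and 20.9% at least 2-fold lower (48.1% in either direction, median −0.06). Of 20 acute phase genes, 19 were higher (median 4.08) and none lower. The list held 156 UMIs in Naïve and 61067 in ConA+FICZ. Its genes thus passed the UMI limit largely through ConA+FICZ, which favoured this direction. Summed without that limit, the list made up 0.584% of non-mitochondrial UMIs in Naïve and 19.7% in ConA+FICZ. *Orm1*, orosomucoid-1, was higher by 4.75 on the log2 scale (4.09 to 5.51), and *Hamp*, which encodes the iron hormone hepcidin, by 3.15 (2.60 to 3.75). Of 16 urea cycle and amino acid genes, 12 were lower and 1 higher (median −2.61), with *Ass1* lower by 4.44 and *Gnmt* by 4.10. Not every metabolic gene was lower. *Fabp1*, the liver fatty acid binding protein, had levels of 12128 CPM in Naïve and 11150 CPM in ConA+FICZ (log2 ratio −0.12, from −0.29 to 0.05), and of 6 lipid and bile acid genes 1 was lower and 5 lay between. *Mt1*, a metal-binding metallothionein, was higher by 1.64 (1.42 to 1.86).

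Other metabolic groups were compared between Naïve and ConA+FICZ as well, against the 27.1% of all genes at least 2-fold higher and the 20.9% lower. The 3 glucose genes measured had log2 ratios of −1.84 to −0.81 (median −1.10), and 2 of them were at least 2-fold lower in ConA+FICZ. *Fbp1*, an enzyme of gluconeogenesis, had a log2 ratio of −1.84 (−2.19 to −1.47), and *Pck1*, another, of −1.10 (−1.60 to −0.57). Of 11 cytochrome P450 and conjugation genes 5 were lower and 5 higher (median −0.65), so that this group had no common direction. Its log2 ratios ran from −5.11 to 3.28. *Adh1* (−2.47, from −2.90 to −2.04) and *Aldh2*, which oxidize alcohol and its aldehyde, and *Sult1a1*, a sulfotransferase (−1.19, from −1.70 to −0.65), were among the lower ones. *Aldh2* had 58 UMIs in 13 of 17 Naïve cells and 140 UMIs in 89 of 199 ConA+FICZ cells. Of 4 stress genes 3 were higher and 1 lower. *Hspa5*, the chaperone of the endoplasmic reticulum, had 4 UMIs in Naïve and 422 in ConA+FICZ (3.18, from 1.82 to 5.07), and *Mt2*, a second metallothionein, differed by 1.88 (1.12 to 2.76).

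Within each library the 2 lists were also compared cell by cell. In Naïve the acute phase list ran from 0% to 11.2% of non-mitochondrial UMIs with a median of 0.338%, and the urea cycle and amino acid list from 0.381% to 11.6% with a median of 5.85%. In ConA+FICZ the acute phase list ran from 2.61% to 30.9% with a median of 20.2%, and the other from 0% to 3.38% with a median of 1.22%. ConA+Veh cells had acute phase shares of 0.731% to 17.4% with a median of 5.93%, and the ConA+TCDD cell stood at 18.1%. The 5 ConA+Veh cells that the marker check went against had 0.731% to 2.68%, and the other 6 had 5.93% to 17.4%. The acute phase share was the larger of the 2 in all 199 ConA+FICZ cells and all 11 ConA+Veh cells, and the smaller in 15 of 17 Naïve cells. The libraries overlapped, however, because 2 Naïve cells had the larger share in the acute phase list. That of 525 UMIs had an acute phase share of 11.2% with 0.381% for the other list, and 2.29% of its UMIs were in the rule genes. That of 511 UMIs had 3.56% with 0.395%, and 1.17% of its UMIs were in the rule genes.

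**Figure D3:**
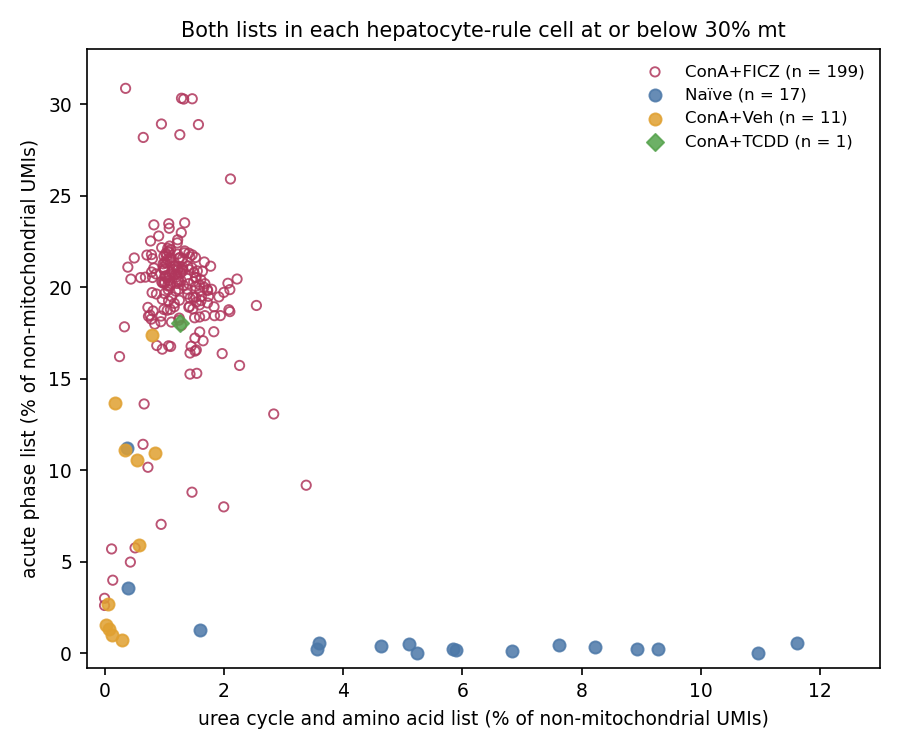
Share of non-mitochondrial UMIs in the urea cycle and amino acid list (horizontal) and in the acute phase list (vertical) for each hepatocyte-rule cell at or below 30% mitochondrial UMIs, with 1 point per cell. Naïve cells spread along the horizontal axis up to 11.6%, most ConA+FICZ cells lie near 20% on the vertical axis, and 9 ConA+FICZ cells stand above 25%.

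ConA+FICZ shared with ConA+Veh the exposure to ConA, and their comparison depended on which ConA+Veh cells entered. Over all cells at or below 30% mitochondrial UMIs, 39.2% of 816 genes were at least 2-fold higher in ConA+FICZ and 10.3% at least 2-fold lower (49.5% in either direction, median 0.67). Of 20 acute phase genes 10 were higher and 1 lower (median 1.02), and of 13 urea cycle and amino acid genes 11 were higher and none lower (median 1.60). The ConA+FICZ cells held 310043 non-mitochondrial UMIs and the ConA+Veh cells 23060. Genes thus passed the 50-UMI limit largely through ConA+FICZ, which favoured the higher direction for these lists and over all genes. Summed without that limit, the 2 lists made up 19.7% and 1.17% of non-mitochondrial UMIs in ConA+FICZ, and 6.91% and 0.321% in ConA+Veh. The genes lowest in ConA+FICZ were *H2-Aa* (−6.43, from −7.83 to −5.27) and *Cd74* (−5.55, from −6.10 to −5.03), which serve antigen presentation in B cells, and *Malat1* (−4.84, from −5.15 to −4.53). *Cd74* was found in 4 and *H2-Aa* in 5 of the 11 ConA+Veh cells. Without cells that held 5 or more UMIs of another type, the ratio of *Malat1* was −5.82 and 44 genes in place of 84 were at least 2-fold lower. That step kept 1 ConA+Veh cell of 4615 UMIs, which held 187 of the 268 *Malat1* UMIs. Only 0.715% of its UMIs were in the 12 hepatocyte markers outside the rule. In cells with at least 5% of UMIs in the rule genes, *Malat1* stood at 1100 CPM in ConA+Veh (10 UMIs) and 59.8 in ConA+FICZ (17 UMIs). The genes highest in ConA+FICZ were *S100a8* (5.41), *Nnmt* (4.31, from 1.82 to 9.62) and *Scp2* (4.07, from 2.52 to 6.35). *S100a8* was found in 10 cells, and 1 of them held 79.9% of its UMIs, whereas *Nnmt*, nicotinamide N-methyltransferase, was found in 122 and *Scp2*, a sterol carrier protein, in 173 of the 199 cells.

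When the comparison was limited to cells with at least 5% of UMIs in the rule genes (186 in ConA+FICZ and 6 in ConA+Veh, none of the 6 with 5 UMIs of another cell type), the acute phase difference shrank. Of 730 genes, 25.5% were at least 2-fold higher and 8.9% at least 2-fold lower (34.4% in either direction, median 0.24). Here too genes passed the 50-UMI limit largely through ConA+FICZ (284092 non-mitochondrial UMIs against 9090), which favoured the higher direction. Of the 20 acute phase genes 3 were then higher and 4 lower (median 0.14), and the log2 ratio of the summed list was 0.46 (0.38 to 0.54) in place of 1.51. This value rested on 1 ConA+Veh cell of 7101 UMIs, in which the list made up 17.4% of non-mitochondrial UMIs, compared with 5.93% to 13.7% in the other 5 cells (525 to 877 UMIs). Without that cell, an alternative chosen after seeing the data, the ratio was 0.97 (0.81 to 1.12), and with at least 10% of UMIs in the rule genes it was 1.04 (0.84 to 1.24). *Saa2* still differed by 1.10 (0.88 to 1.33) and *Hp* by 0.29 (0.07 to 0.52), while *Hpx* was lower by 0.75 (−0.94 to −0.56). The single-gene values and gene counts of this comparison lean on the same cell of 7101 UMIs and are given only with it. *Saa2* made up 2.29% of its non-mitochondrial UMIs. In the 6 ConA+Veh cells under 1000 UMIs, 1 of which had under 5% of UMIs in the rule genes, *Saa2* made up 0.850%. Ribosomal protein genes turned direction, from 33 of 75 lower and 1 higher (median −0.91) over all cells to 24 of 74 higher and 1 lower (median 0.63). Plasma protein genes were lower more often than higher, 11 of 25 against 0 (median −0.95). Of the 13 urea cycle and amino acid genes 5 in place of 11 were higher and none lower (median 0.52), and the log2 ratio of the summed list was 0.80 (0.44 to 1.18) in place of 1.86. *Fabp1* (2.09, from 1.52 to 2.72) and *Fth1*, the ferritin heavy chain (3.25, from 2.32 to 4.38), were still at least 2-fold higher in ConA+FICZ.

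The ConA+TCDD library gave 1 hepatocyte-rule cell with 631 UMIs and 348 genes, so its values are those of that cell. Its most abundant genes outside the rule were *Mt1* with 35 UMIs, *Saa2* with 32, *Orm1* with 17, *Saa1* with 14 and *Hp* and *Hamp* with 11 each. Over ConA+Veh, 15.9% of 82 genes were at least 2-fold higher and 12.2% at least 2-fold lower (28% in either direction). Of 10 acute phase genes 6 were higher and none lower. *Mt1* had a log2 ratio of 3.16 (2.58 to 3.70), *Hamp* of 3.04 (1.94 to 4.0) and *Saa2* of 2.59 (2.0 to 3.14). Without the 4 ConA+Veh cells with B cell markers, 4 of 27 genes were higher, and the log2 ratio of the summed acute phase list was 0.68 in place of 1.39. That step kept the ConA+Veh cell of 4615 UMIs that the marker check went against. The list made up 18.1% of non-mitochondrial UMIs in the ConA+TCDD cell, and 14.99% in the 6 ConA+Veh cells with at least 5% of UMIs in the rule genes. Over all 11 ConA+Veh cells, *Hpx* (−0.28, from −1.74 to 0.86), *Fga* (−0.04, from −2.34 to 1.54) and *Apoc3* (0.06, from −2.24 to 1.65) had intervals too wide to place. *Gm42418*, which overlaps ribosomal RNA, was lower (−1.73, from −3.05 to −0.68). *Ass1*, *Bhmt* and *Fabp1* had no UMI in this cell, which allows a level of up to 4754 CPM (3 counts).

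Because both TCDD and FICZ act through AhR, its target genes were read in all hepatocyte-rule cells at or below 30% mitochondrial UMIs. *Cyp1a1*, *Cyp1b1*, *Ahrr* and *Nqo1* had no UMI in any of the 228 cells. In ConA+FICZ this allows a level of up to 9.68 CPM each, in ConA+Veh up to 130 and in Naïve up to 112, while in ConA+TCDD the limit of 4754 leaves almost any level possible. *Cyp1a2*, an AhR-responsive cytochrome P450 of the liver, had 1 UMI in Naïve and none elsewhere. *Tiparp* had 6 UMIs in ConA+FICZ, 1 each in Naïve and ConA+Veh, and 0 in ConA+TCDD. *Cyp1a1* was present in the cells outside the rule. It had 24 UMIs among 5676835 non-mitochondrial UMIs in Naïve and 2 among 18592050 in ConA+Veh. In ConA+TCDD it had 17 among 11701427, and in ConA+FICZ 104 among 15264793. In each library this level lay below the limit given for the hepatocyte-rule cells, so their 0 counts do not place *Cyp1a1* below it.

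Of the lobular zone markers, the periportal list gave more UMIs than the pericentral list in most cells. Periportal genes (the list includes *Ass1*, *Pck1* and *Cps1*) gave 901 UMIs in the 17 Naïve cells, 3.37% of non-mitochondrial UMIs, and 1868 in the 199 ConA+FICZ cells, 0.602%. *Ass1* alone gave 692 of the 901. Gene by gene there was no common direction, as 5 of 10 periportal genes measured were at least 2-fold higher in ConA+FICZ than in Naïve and 4 lower (median log2 ratio 0.59), compared with 27.1% and 20.9% of all 851 genes. Pericentral genes gave 107 UMIs (0.401%) and 86 (0.0277%). More periportal than pericentral UMIs were held by 13 of 17 Naïve, 9 of 11 ConA+Veh and 192 of 199 ConA+FICZ cells. The 11 ConA+Veh cells include the 5 that the marker check went against. In T or B marker cells outside the rule the periportal sum was the larger too, with 3059 against 1321 UMIs in ConA+Veh and 2100 against 994 in ConA+FICZ. The sums alone therefore do not place a cell in a zone. A single Naïve cell of 553 UMIs carried 38 pericentral and 0 periportal UMIs, and it alone held the 19 *Glul* UMIs of the 17 Naïve cells, while in ConA+FICZ 26 UMIs were spread over 21 cells. *Glul*, glutamine synthetase, is restricted to the hepatocytes around the central vein. *Oat*, which is pericentral too, had 43 UMIs in 5 Naïve cells, compared with 4 UMIs in 4 of the 199 ConA+FICZ cells. As the lists of enzymes overlap, the periportal counts are not independent of the urea cycle values above.

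Interferon-γ response genes were measured because ConA hepatitis is driven by T cell cytokines. *Cxcl9*, a chemokine induced by interferon-γ, had 8 UMIs in 1 Naïve cell, 29 UMIs in 9 of 11 ConA+Veh cells, none in the ConA+TCDD cell and 341 UMIs in 135 of 199 ConA+FICZ cells. *B2m*, the light chain of class I molecules, had levels of 561 CPM in Naïve (314 to 926), 1865 in ConA+Veh (1349 to 2512) and 1293 in ConA+FICZ (1170 to 1426). Of 7 genes of this list measured between ConA+FICZ and Naïve, 5 were at least 2-fold higher (median 1.88) and none lower, where 27.1% of all genes were higher and 20.9% lower. The list held 53 UMIs in Naïve and 1930 in ConA+FICZ. Its genes thus passed the UMI limit largely through ConA+FICZ, which favoured this direction. Of 9 genes of the list measured between ConA+FICZ and ConA+Veh none was higher and 1 was lower (median −0.21), where 39.2% of all genes were higher and 10.3% lower.

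The ConA+FICZ cells were not all alike. The 13 of the 199 cells with under 5% of UMIs in the rule genes had acute phase shares of 2.61% to 23.5%, 8 of them held *Malat1* (109 of the 126 UMIs), and their mitochondrial share reached 23.3%. Another group was chosen after the values were seen. In 9 of the 199 cells the acute phase list made up at least 25% of non-mitochondrial UMIs (25.9% to 30.9%), and the next cell stood at 23.5%. These 9 cells had 521 to 3984 UMIs, 8.23% to 11.3% of UMIs in the rule genes, and 8 had no mitochondrial UMI. Compared with the other 190 cells, and leaving out the rule and acute phase genes, 6.56% of 747 genes were at least 2-fold higher and 23.8% at least 2-fold lower (median −0.28). The acute phase UMIs stayed in the denominator (29.1% in the 9 cells, 19.4% in the others), which lowers the ratios of all other genes. Genes also passed the 50-UMI limit largely through the other 190 cells (299898 non-mitochondrial UMIs against 10145), which favoured the lower direction. Of 25 plasma protein genes 10 were higher and none lower (median 0.75), whereas of 74 ribosomal protein genes 37 were lower and none higher (median −0.99). *Pzp* (3.01, from 2.49 to 3.49), *Fn1* (2.99), *Agt* (2.67), *Serpina1e* (2.58, from 2.18 to 2.95) and *Plg* (2.16) had the highest ratios. *Cps1*, an enzyme of the urea cycle in mitochondria, was higher as well (2.0, from 1.23 to 2.70). The urea cycle and amino acid list as a whole made up 1.15% of non-mitochondrial UMIs in the 9 cells and 1.17% in the other 190. *Fabp1* had 13 UMIs and a level of 1281 CPM in these cells against 11484 in the others, and *Tmsb10* had none against 475 UMIs. In the 6 ConA+Veh cells with at least 5% of UMIs in the rule genes, *Fabp1* stood at 2750 and *Pzp* at 4510 CPM, and in the 3 ConA+FICZ cells above 30% mitochondrial UMIs at 816 and 13061, with 3.96% of ribosomal protein genes.

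Of the 6 cells above 30% mitochondrial UMIs, 3 held at least 1% of UMIs in the 12 independent markers, and the others held 0.572% (Naïve), 0.549% (ConA+Veh) and 0.308% (ConA+FICZ). The Naïve cell (699 UMIs, 77.8% mitochondrial) had 3.15% of UMIs in the rule genes, 19 of 22 from *Alb*. The ConA+Veh cells (3823 and 3673 UMIs, 86.7% and 42.1%) and the ConA+FICZ cells (974, 1812 and 1785 UMIs, 63.2%, 44.5% and 39.2%) had 1.23% to 4.60%. The acute phase list made up 15.1% of non-mitochondrial UMIs in ConA+FICZ, 12.2% in ConA+Veh and 3.23% in Naïve. *Hpx* had the most UMIs of the list in both ConA libraries, with a level in CPM of 27325 in ConA+Veh (21380 to 34411) and 34694 in ConA+FICZ (27712 to 42900). Among genes with at least 50 UMIs in both libraries together, ConA+FICZ differed most from ConA+Veh in *Trf*, transferrin, and *Mt1*. Their log2 ratios were 1.02 (0.16 to 1.93) and −1.24 (−2.03 to −0.51). *Pzp*, with fewer UMIs, stood at 4934 CPM in ConA+Veh (13 UMIs) and 13061 in ConA+FICZ (32 UMIs). *Malat1* was found in 5 of the 6 cells.

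Hepatocyte RNA was also found in cells outside the rule. Outside the rule, the 6 rule genes made up 149.5 of every 1000000 UMIs in ConA+FICZ and 92.5 in Naïve, compared with 43.0 in ConA+Veh and 15.2 in ConA+TCDD. These are values of the rule's own genes and include the cells just below its threshold. In cells with T or B cell markers, 14 hepatocyte genes outside the rule were compared with the hepatocyte-rule cells of the same library. In Naïve these T or B marker cells held 431 UMIs of the 14 genes, and 4 of the 1653 cells had at least 1% of UMIs in the 12 independent markers. Without those 4 cells, left out after seeing the data, 323 UMIs remained, and 13 of the 14 shares stayed within their intervals. *Saa1* and *Saa2* made up 16.9% and 19.7% of the sum of the 14 genes in ConA+FICZ hepatocyte-rule cells, and 18.6% and 18% in its T or B marker cells. In Naïve they made up 0.815% and 0.291% in the hepatocyte-rule cells, and 1.62% and 1.16% in the T or B marker cells. *Gnmt* gave 15.8% and 16.5% in Naïve and 0.311% and 0.280% in ConA+FICZ. *Serpina1b* differed, with 34.5% in the Naïve hepatocyte-rule cells (32.2 to 36.8) against 18.1% in the T or B marker cells (14.6 to 22.1), and *Fabp1* in ConA+FICZ with 5.84% (5.66 to 6.03) against 2.85% (2.37 to 3.39). *Hpx* went the other way in ConA+FICZ, with 7.93% against 11.1%, as did *Serpina3k* in Naïve, with 1.34% against 4.41%. *Bhmt* in Naïve gave 11.3% against 16.7%, but 11.8% without the 4 cells. In ConA+Veh, with 11 hepatocyte-rule cells, *Hpx* gave 17.6% (15.7 to 19.6) against 10.9% (8.33 to 14) in the T or B marker cells, the reverse of ConA+FICZ. *Saa1* and *Saa2* there gave 12.2% and 12.8% against 16.9% and 13.5%. In ConA+TCDD, with 1 cell, *Saa2* gave 33.7% against 3.94%. *Ass1* was left out of this sum, as it was also found in 25.1% of ConA+Veh T or B marker cells.

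**Figure D4:**
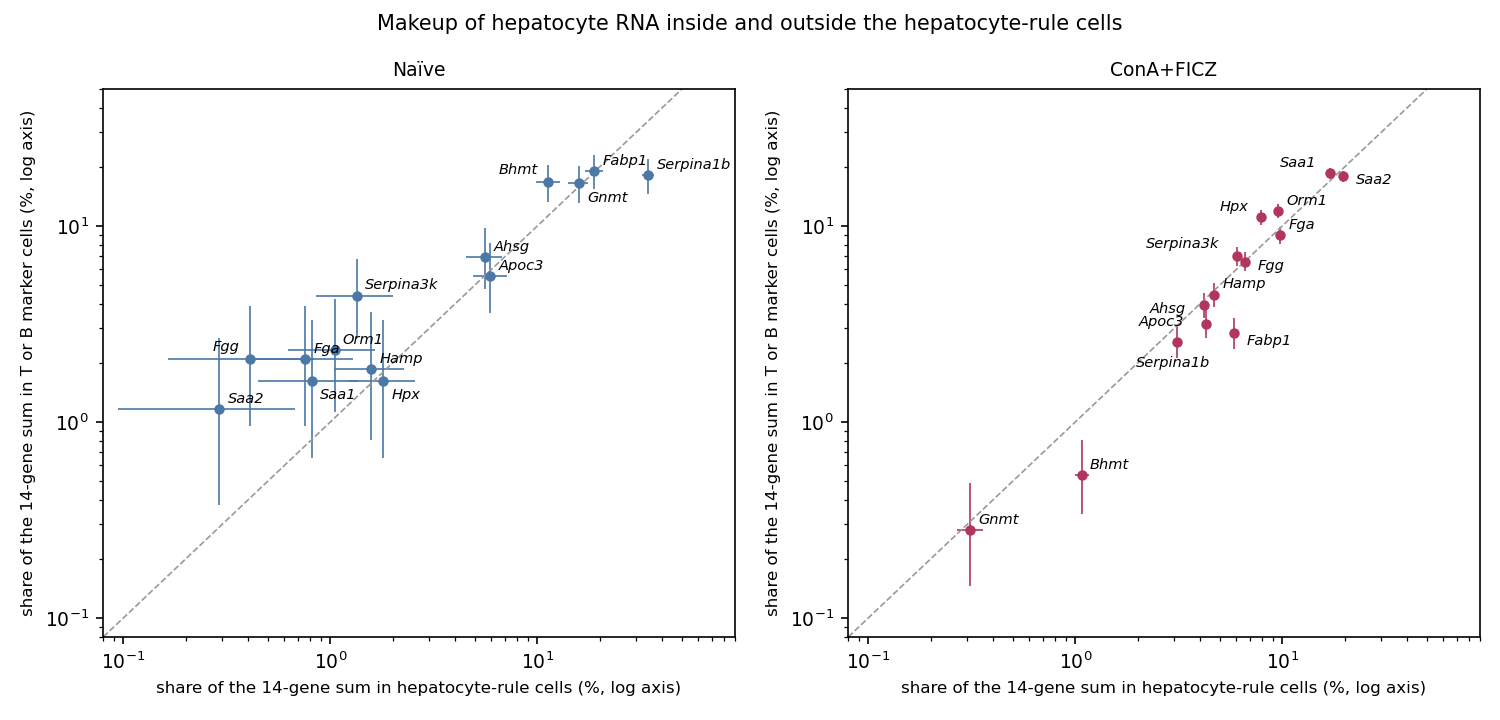
Share of 14 hepatocyte genes in their sum, in hepatocyte-rule cells at or below 30% mitochondrial UMIs (horizontal, log axis) and in T or B marker cells outside the rule (vertical, log axis), for Naïve and ConA+FICZ. Bars are exact binomial 95% intervals and the dashed line marks equal shares. *Saa1* and *Saa2* are near the top right in ConA+FICZ and among the lowest in Naïve.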

How the data were processed

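Liver mononuclear cells of 4 conditions were measured with the 10x Genomics 5′ assay, 1 library each. The deposited values are raw UMI counts per gene and cell, which the authors made with Cell Ranger 3.0.2 against mm10, for 31053 genes. The smallest cells held 500 or 501 UMIs, and the libraries held 5952445 (Naïve), 19252211 (ConA+Veh), 12077209 (ConA+TCDD) and 16017797 UMIs (ConA+FICZ).

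Per library, the counts of the chosen cells were added up and scaled to 1000000 UMIs of genes not encoded by mitochondria (CPM), with exact Poisson intervals. Shares have exact (Clopper-Pearson) binomial intervals, and log2 ratios the exact conditional binomial interval, all at 95%. Ratios were formed for genes with at least 50 UMIs in both libraries together, and a gene at 0 in 1 library was given a bound at 3 counts. A gene could thus pass this limit through 1 library alone, which favours the direction in which that library is higher. T or B marker cells held at least 2 UMIs of those lists. Immunoglobulin and T cell receptor segments, rule genes and mitochondrial genes were left out of the ranking of genes. Named were the rule genes, the 4 genes with most UMIs of each list, the 15 with the highest level, the 3 highest and 3 lowest ratios per comparison and the AhR targets. Genes named only for the 9 cells of highest acute phase share (such as *Pzp* and *Tmsb10*), *Ftl1* and markers of other cell types were chosen after their values were seen. The members and lists were chosen with earlier results of these data known. Ratios were tested on simulated data, and no result of that step is used here. No doublet caller was run. The work was done in Python (3.11.15) with pandas (2.3.3), scipy (1.17.1), matplotlib (3.10.9) and numpy (2.4.6). Alternatives were other thresholds, denominators, depths and subsets of cells. Some genes of the lists are not reported here by name.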

Additional observations from a re-analysis of the deposited data

Results flagged for a closer look

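In the Naïve library 13 cells outside the rule held at least 1% of UMIs in the 12 hepatocyte markers that the rule does not use, as did 1 cell of ConA+FICZ and none of the other libraries. They came to notice because they carry hepatocyte RNA and are not among the hepatocyte-rule cells compared between libraries, although 4 of them are among the T or B marker cells. The 13 cells had a median of 1221 UMIs, 0.128% to 0.983% of UMIs in the rule genes and a median mitochondrial share of 0.0819%. *Ass1* gave 532 UMIs in them, a level of 21642 CPM, and *Alb* 56 UMIs.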

How the results depend on the processing

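The share of hepatocyte-rule cells at or below 30% mitochondrial UMIs and that above 30% stayed within their intervals in 68 of 88 alternatives. In Naïve it was 0.815% and became 0.431%, 0.0479% and 0% with 2%, 5% and 10% of UMIs required in the rule genes, 0.417% among cells of at least 1000 UMIs, and 1.39% by the 12 other markers (chosen after seeing the data, like the 5% threshold for gene levels and the removal of cells with markers of other types). In ConA+FICZ it was 7.79%, and 0.235% at 10% and 4.07% among cells of at least 1000 UMIs. In ConA+Veh it was 0.396%, and 0.108% at 10%. In ConA+TCDD it was 0.0532%, and 0% at 5%, at 10% and among cells of at least 1000 UMIs. Above 30% mitochondrial UMIs the shares of 0.0479% (Naïve), 0.0720% (ConA+Veh) and 0.117% (ConA+FICZ) fell to 0% at 5% and 10%. That of Naïve also fell to 0% among cells of at least 1000 UMIs and by the other markers. That of ConA+TCDD rose from 0% to 0.213% when the rule was taken on non-mitochondrial UMIs.

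The numbers of genes at least 2-fold apart moved by over 1.5 times in 8 of 42 cases. Without cells of other types' markers, 27 genes were higher in ConA+Veh over Naïve in place of 56, 4 in place of 13 were higher in ConA+TCDD over ConA+Veh, and 44 in place of 84 were lower in ConA+FICZ over ConA+Veh. On all UMIs 26 were higher in ConA+TCDD over ConA+Veh. Without the top cell of each gene 44 were lower in ConA+FICZ over ConA+Veh, at 10% of rule genes 8 were higher and 6 lower, and at 5% 186 in place of 320 were higher (of 730 and 816 genes).

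The summed acute phase and urea cycle lists turned direction in none of 38 alternatives, of which 14 moved their log2 ratio beyond its interval. For the acute phase list the ratio was 3.57 in ConA+Veh over Naïve, 2.56 as a mean over cells and 4.27 without cells of other types, and in ConA+TCDD over ConA+Veh 1.39 and, without cells of other types, 0.68. In ConA+FICZ over ConA+Veh it was 1.51, and 1.68 on all UMIs, 1.04 at 10%, 0.46 at 5%, 0.97 at 5% without the ConA+Veh cell of most UMIs (added after seeing the data) and 0.84 without cells of other types. In ConA+FICZ over Naïve it was 5.08, and 4.05 as a mean over cells. The urea cycle and amino acid list gave −4.38 in ConA+Veh over Naïve (−3.72 without cells of other types), 1.86 in ConA+FICZ over ConA+Veh (0.80 at 5%, 1.27 at 5% without that cell, 1.27 without cells of other types) and −2.52 in ConA+FICZ over Naïve (−2.24 as a mean over cells). Of 661 values of single genes, 456 moved by less than their intervals, 200 moved further and 5 turned. These 5 were *Rps20* (−0.63 in ConA+Veh over Naïve without cells of other types, and 0.73 so and 0.54 at 5% in ConA+FICZ over ConA+Veh), *Gnmt* (−0.0075 as a mean over cells) and *Serpina1b* (−0.34 at 10%), both in ConA+FICZ over ConA+Veh. In the T or B marker cells of Naïve 1 of 14 shares moved without the 4 cells rich in hepatocyte markers, that of *Bhmt* (from 16.7% to 11.8%). The cause was not tested. No paired analysis was possible because each condition is 1 library, and for the same reason no replicate could be left out. In ConA+TCDD the depth of 631 UMIs leaves most genes unmeasured. The 10% threshold gave no gene levels for Naïve or ConA+TCDD, which had no such cell, and leaving out the top cell gave none for ConA+TCDD, which had 1 cell.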
